A study of Homo sapiens with 12 samples.

Results

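The human mitochondrial genome carries 37 genes: 13 for proteins, 2 for ribosomal RNAs and 22 for transfer RNAs. They were taken from the deposited expression tables as the rows whose gene symbol starts with MT-, joined across the tables by gene identifier, and all 37 were found among the 60671 genes of the table for LA libraries and the 60666 genes of the table for PGN libraries (60630 identifiers are in both). The libraries came from SZ95 sebocytes, an immortalised cell line of the human sebaceous gland, and total RNA was the stated material. There were 4 groups of 3 libraries, described in the design text as biological replicates: LA alone, LA with RVT (LA+RVT), PGN alone and PGN with RVT (PGN+RVT). RVT is resveratrol per the series title, while the labels do not expand the abbreviations LA and PGN, taken here to be linoleic acid and bacterial peptidoglycan. Every group received 1 of these stimuli, no untreated group is among the samples analysed here, and the labels used here give no dose or duration. All cells were of this 1 line, and nothing states whether replicates were separate cultures on separate days, so p-values reflect only how far these libraries scatter, which may be technical.

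Mitochondrial DNA is a small circle whose strands, called heavy and light after their base composition, are each copied into long RNAs that run through many genes. The tRNAs that lie between most of the other genes are cut out, which frees the rRNAs and most mRNAs, and most of these RNAs receive short poly(A) tails. The proteins are subunits of the respiratory chain (complexes I, III and IV) and of ATP synthase (complex V), and every other protein of the mitochondrion, including the polymerase that transcribes the circle, is encoded in the nucleus.

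Gene positions and sequences below are from GENCODE 29 on GRCh38, matched by gene identifier. None of these genes has an intron. The 12 protein genes MT-ND1, MT-ND2, MT-CO1, MT-CO2, MT-ATP8, MT-ATP6, MT-CO3, MT-ND3, MT-ND4L, MT-ND4, MT-ND5 and MT-CYB, both rRNAs (MT-RNR1 and MT-RNR2) and 14 tRNAs are transcribed from the heavy strand. MT-ND6 and 8 tRNAs are transcribed from the light strand. Neighbouring genes share bases in 5 pairs, 3 of protein genes and 2 of tRNA genes, and a read inside the shared bases fits either gene. The sequences of the 2 protein gene pairs with the longest overlaps are shown; in the remaining pair, MT-ATP6 and MT-CO3 share 1 base. MT-ATP8 (chrM:8366-8572, plus strand) shares its last 46 bases, 22.2% of its length, with the start of MT-ATP6 (chrM:8527-9207, plus strand). The whole of MT-ATP8 and the first 60 bases of MT-ATP6 (chrM:8527-8586) are printed, with the shared bases in capitals.
MT-ATP8: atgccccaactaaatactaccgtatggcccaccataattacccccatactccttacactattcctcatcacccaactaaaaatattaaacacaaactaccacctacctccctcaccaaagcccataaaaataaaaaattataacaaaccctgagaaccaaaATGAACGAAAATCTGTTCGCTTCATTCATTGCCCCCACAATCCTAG
MT-ATP6 start: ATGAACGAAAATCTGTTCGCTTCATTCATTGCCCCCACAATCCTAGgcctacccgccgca
MT-ND4L (chrM:10470-10766) and MT-ND4 (chrM:10760-12137) share 7 bases, in capitals in the last 30 bases of the former (chrM:10737-10766) and the first 30 of the latter (chrM:10760-10789), both on the plus strand.
MT-ND4L end: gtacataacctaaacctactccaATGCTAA
MT-ND4 start: ATGCTAAaactaatcgtcccaacaattata

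MT-ND5 (chrM:12337-14148) and MT-ND6 (chrM:14149-14673) face each other tail to tail and share no base. Their last 30 bases are printed 5′ to 3′ on their own strands, MT-ND5 on the plus strand (chrM:14119-14148) and MT-ND6 on the minus strand (chrM:14149-14178), with the last 3 bases in capitals. The sources used here do not say whether counting used strand, so RNA copied from the opposite strand cannot be told apart from a gene's own.
MT-ND5 end: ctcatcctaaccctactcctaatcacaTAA
MT-ND6 end: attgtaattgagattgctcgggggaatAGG
The tRNA genes are between 59 and 75 bases long. The shortest, MT-TS2 for a serine tRNA (chrM:12207-12265, plus strand), is shown whole to give the size of what the libraries would have had to capture.
MT-TS2: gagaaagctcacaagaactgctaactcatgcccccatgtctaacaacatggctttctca

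Expression was deposited as TPM, a share-based unit of transcript abundance, which divides by transcript length and by the total of the library. TPM can therefore be compared between genes of different length, but it holds shares and no depth: the depth of each library is unknown, no counting interval can be given, and a lower TPM can also come from higher values elsewhere in the library. Library totals were 994373 to 997060 TPM, 14489 to 15452 genes reached 1 TPM, and the lowest Spearman correlation within a group was 0.978 or more for every library. Of 15 sebocyte markers, 12 reached a mean of 1 TPM in the LA groups and 11 in the PGN groups, among them KRT7, PPARG, FASN and EPCAM. AWAT2, an enzyme of sebum wax synthesis, was at 0 in all 4 groups. Of markers of other cell types, 2 of 8 fibroblast, 2 of 8 immune, 1 of 5 endothelial and 2 of 5 melanocyte genes reached 1 TPM in each group. Their summed means over the 4 groups were 13.02 to 14.7, 37.0 to 56.8, 7.59 to 25.6 and 22.3 to 30.8 TPM. The genes that reached 1 TPM were COL1A1, THY1, CD14, CD68, CDH5, MITF and PMEL. CD68 stood highest, with a mean of 46.6 TPM in LA and 32.4 TPM in PGN. Among the others, PDGFRA, CD3E, PECAM1, VWF and TYR stayed below 1 TPM in all 4 groups. In these bulk samples, fewer cells of a type and less RNA per cell cannot be told apart.

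The 15 protein and rRNA genes were among the most abundant RNAs of every library, between 1166 TPM (MT-RNR1 in LA replicate 2) and 31493 TPM (MT-CO2 in LA replicate 1). In the LA group the level ran from MT-CO2 (30795 ± 777 TPM, mean ± SD, n = 3, as throughout), a subunit of cytochrome c oxidase that carries a copper centre, over MT-ATP8 (25019.6 ± 885 TPM), MT-ND4L (17599 ± 815 TPM) and MT-CO1 (15208 ± 409 TPM) down to MT-CYB (2893 ± 26.1 TPM), MT-ND1 (2696 ± 79.5 TPM) and MT-RNR1 (1212 ± 48.9 TPM). The highest mean was 25.4 times the lowest in LA, 22.3 times in LA+RVT, 14.8 times in PGN and 14.5 times in PGN+RVT, although the genes of each strand start out in shared long RNAs. In the ordered list of 15, 4 of 14 neighbouring pairs had overlapping library ranges in LA, 1 in LA+RVT, and 5 each in PGN and PGN+RVT. The same 4 genes, MT-CO2, MT-ATP8, MT-ND4L and MT-CO1, held the 4 highest places in every group. In PGN the order of the upper pair was not separated, with MT-ATP8 at 22911, 19856 and 19436 TPM and MT-CO2 at 19280.2, 20286 and 21454 TPM in replicates 1, 2 and 3.

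MT-ATP8 and MT-ND4L, the shortest protein genes, lie on shared RNAs with MT-ATP6 and MT-ND4 yet were listed at several times their level. In LA, MT-ATP8 stood at 25978, 24234 and 24846 TPM and MT-ATP6 at 6106, 5999 and 5976 TPM. The log2 ratio of the pair was 2.05 ± 0.037 in LA and 1.82 ± 0.17 in PGN, and that of MT-ND4L to MT-ND4 was 1.15 ± 0.033 and 1.32 ± 0.070. TPM divides by a length that is short for both, and the sources used here do not say how reads in the shared bases were counted, so these ratios are ratios of listed values. Across the 13 protein genes, level and length had a Pearson r of -0.35 in LA and -0.44 in PGN (Spearman rho -0.25 and -0.39), a description over genes that come from the same libraries. The plot of levels along the genome shows each library.

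**Figure D1:**
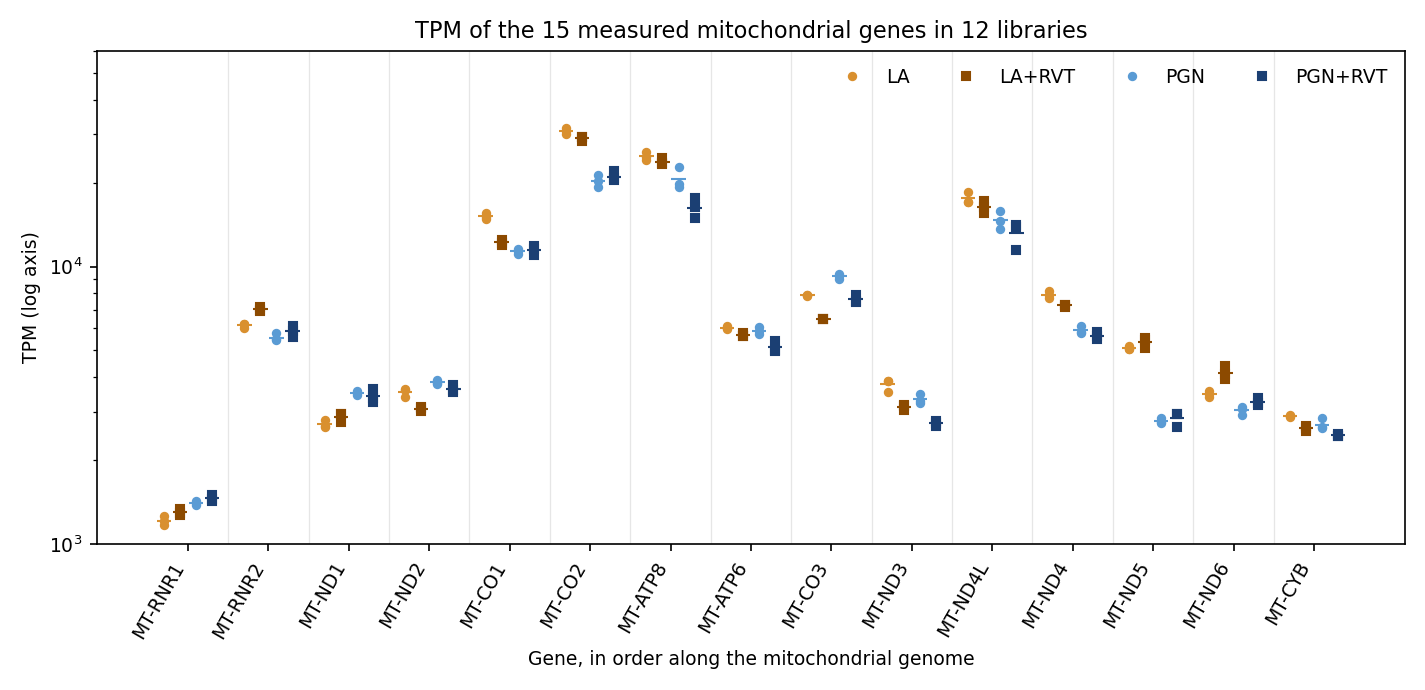
TPM (log axis) of the 15 measured mitochondrial genes in order along the genome, with a point for each of 12 libraries and a bar for each group mean. MT-CO2, MT-ATP8, MT-ND4L and MT-CO1 stand highest and MT-RNR1 lowest in every group, and MT-CO1 is lower in LA+RVT than in LA but at similar levels in PGN and PGN+RVT.

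The LA and PGN tables were scaled apart and rest on annotations that differ (1432 shared identifiers carry different names), so levels under the stimuli are set side by side without a test. MT-ND5, the largest proton-pumping subunit of complex I, had a mean of 5079 TPM in LA and 2773 TPM in PGN, a ratio of 1.83, and MT-CO2 had 30795 and 20340.3 TPM, a ratio of 1.51. At the other end, MT-ND1 had 2696 and 3498 TPM, a ratio of 0.771. Over the 15 genes, levels in LA and PGN had a Pearson r of 0.97 and a Spearman rho of 0.92.

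The 22 tRNA genes gave no value. Each was listed at 0 TPM in all 12 libraries, which is also what nearly all genes of their size showed: of 1549 genes shorter than 80 bases, 1547 were at 0 in every library. The share of genes with any value above 0 was 0.129% below 80 bases, 1.77% from 80 to 150 bases, 14.2% from 150 to 300 bases, 23.6% from 300 to 400 bases and 68.5% above. With no depth in the files, no upper limit on the tRNAs can be given, and nothing about them is compared between groups.

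The first question was how much of the RNA was mitochondrial with and without RVT. The 13 protein genes together held 13.6, 13.1 and 13.04% of all TPM in LA and 12.4, 12.1 and 12.3% in LA+RVT (replicates 1, 2 and 3). They held 10.9, 10.5 and 10.9% in PGN and 10.4, 9.41 and 9.95% in PGN+RVT. In both arms every RVT library was below every library without it, with means going from 13.2 ± 0.282% to 12.3 ± 0.168% under LA and from 10.8 ± 0.214% to 9.93 ± 0.505% under PGN. With 3 against 3 libraries, a two-sided exact permutation test cannot go below p = 0.1, the value it gave in each arm (adjusted p = 0.169 over 22 tests of shares and ratios). An exact permutation test that shuffles labels within each arm and takes the mean of both differences, added after the data were seen, gave p = 0.005 (adjusted p = 0.0183 over 11 quantities), the smallest p its 400 arrangements allow. Under PGN the difference rested on the short genes: without MT-ATP8 and MT-ND4L, an alternative also chosen after seeing the data, it shrank from -0.850 to -0.254 percentage points (exact p = 0.3), while under LA it was -0.749 percentage points. Another large class of RNA moved the same way, since cytosolic ribosomal protein genes held 13.7% ± 0.266 in LA against 12.2% ± 0.124 in LA+RVT and 15.1% ± 0.141 in PGN against 14.3% ± 0.300 in PGN+RVT; its part in the result was not tested.

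The 2 rRNAs, which form the core of the mitochondrial ribosome, did not follow the mRNAs. They held 0.743, 0.719 and 0.748% of all TPM in LA and 0.830, 0.827 and 0.853% in LA+RVT, without overlap. They held 0.717, 0.694 and 0.684% in PGN and 0.731, 0.708 and 0.762% in PGN+RVT, with overlap. The log2 ratio of summed rRNA to summed protein gene TPM was -4.19, -4.19 and -4.12 in LA and -3.90, -3.87 and -3.85 in LA+RVT, and -3.92, -3.92 and -4.00 in PGN and -3.83, -3.73 and -3.71 in PGN+RVT. All RVT libraries were above all libraries without RVT in both arms, with means apart by 0.29 and 0.19 on the log2 scale. Over both arms the exact permutation test gave p = 0.005 for this ratio (adjusted p = 0.0183) and p = 0.01 for the rRNA share (adjusted p = 0.0275), and p = 0.1 in each arm for the ratio. The sources used here do not say how rRNA was handled (depletion or poly(A) selection), so the absolute rRNA level is that of the listed values.

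**Figure D2:**
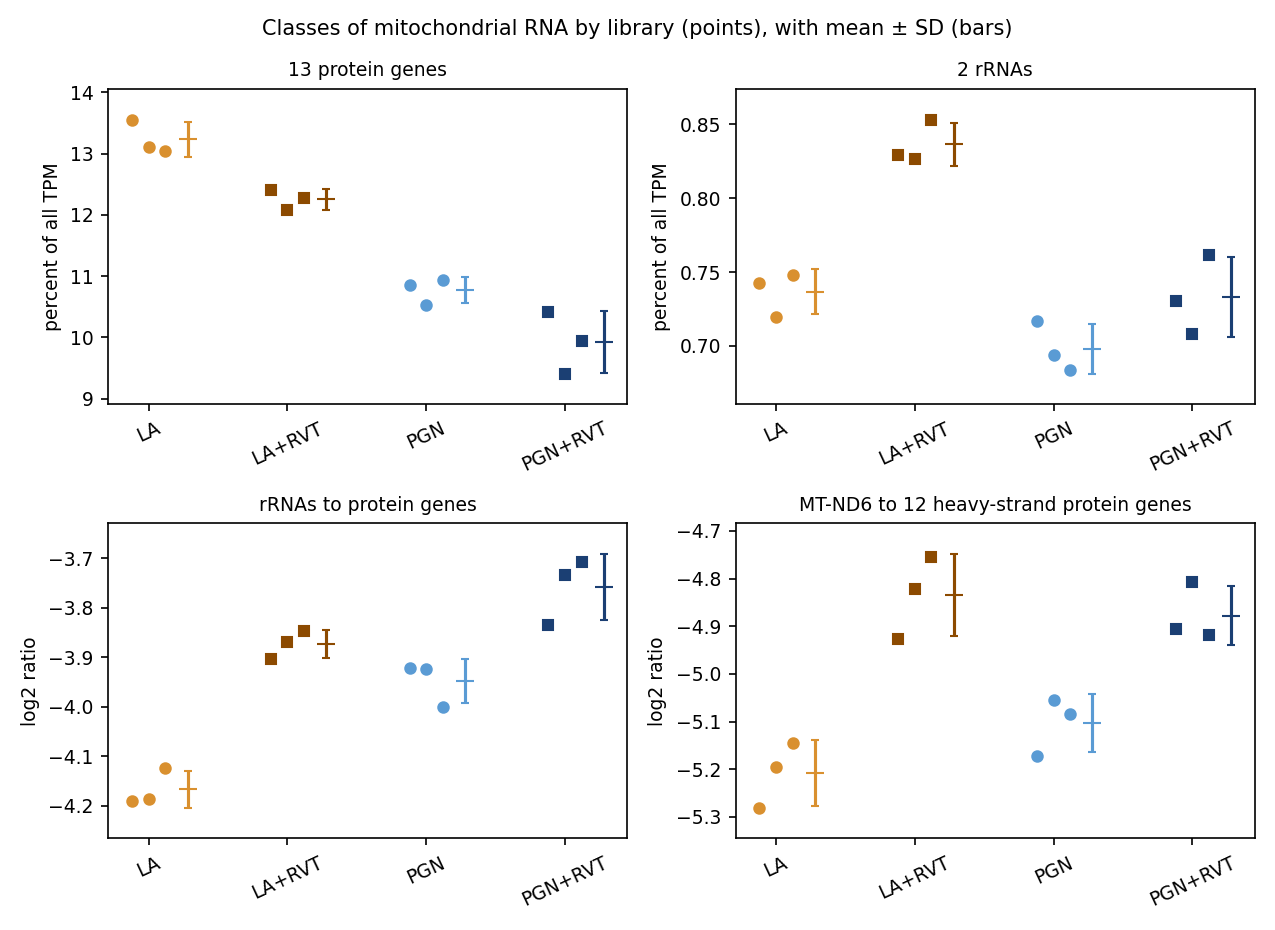
Percent of all TPM held by the 13 protein genes and by the 2 rRNAs, and log2 ratios of rRNAs to protein genes and of MT-ND6 to the 12 heavy-strand protein genes, with a point for each library and a bar for mean ± SD (n = 3 a group). The protein share falls and both ratios rise with RVT without overlap in either arm, and the rRNA share overlaps under PGN only.

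The next comparison took the genes singly under LA, with limma on log2(TPM + 1) over the 15409 genes whose mean reached 1 TPM and Benjamini-Hochberg adjustment over all of them (a call is an adjusted p under 0.05). Of the 13 protein genes 8 were lower in LA+RVT, 1 was higher and 4 were not called, and of the 2 rRNAs 1 was higher. Against this background, 15.7% of all genes tested were called, 10.7% higher and 5.07% lower. The median log2 fold change was -0.10 over the 13 protein genes and 0.036 over all genes. The excess of higher genes among all genes depended on the scale: with the library medians equalised, 1041 genes were higher and 1080 lower in place of 1645 and 781, and 9 mitochondrial genes were lower and 2 higher. Each of the 8 lower genes had every LA+RVT library below every LA library. They were called on these same values, so this is no further evidence. How many of all genes separate in this way was not counted, here or below.

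All 3 mitochondrial subunits of complex IV, cytochrome c oxidase, were lower under LA. MT-CO1, the catalytic subunit, stood at 15647, 15138 and 14838 TPM in LA and 12504, 12193 and 11944 TPM in LA+RVT. Its mean fell by 19.7%, with a log2 fold change of -0.32 ± 0.025 (SE; limma adjusted p = 0.000672). MT-CO3 stood at 7923, 7855 and 7903 TPM in LA and 6462, 6454 and 6469 TPM in LA+RVT, and its mean fell by 18.1% (-0.29 ± 0.011, limma adjusted p = 5.90e-05). For both genes all LA+RVT libraries lay below all LA libraries. MT-CO2 fell least, from 31493, 30934 and 29958 to 29240.0, 28447 and 29267 TPM (-0.087 ± 0.021, limma adjusted p = 0.0350). Its call was lost without LA replicate 1 or 2 (adjusted p = 0.0817 and 0.106) and without LA+RVT replicate 1, 2 or 3 (0.0666, 0.106 and 0.0703), with no filter on low genes (0.474) and with the replicate block (0.0586).

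Of the other complexes, MT-CYB, the cytochrome b of complex III, stood at 2893, 2866 and 2919 TPM in LA and 2626, 2554 and 2656 TPM in LA+RVT (-0.15 ± 0.019, limma adjusted p = 0.00385). In complex V, MT-ATP6, the subunit with the proton channel, fell from 6106, 5999 and 5976 to 5639.9, 5628 and 5744 TPM (-0.088 ± 0.015, limma adjusted p = 0.0114). Its neighbour MT-ATP8 was at 25978, 24234 and 24846 TPM in LA and 24587, 23532 and 23509.9 TPM in LA+RVT, where the groups overlapped (-0.067 ± 0.029, 95% interval -0.14 to 0.0020, limma adjusted p = 0.174). The mean of MT-CYB fell by 9.71% and that of MT-ATP6 fell by 5.91%. With no filter on low genes the call of MT-ATP6 was lost (adjusted p = 0.182), and with library medians equalised or with the replicate block MT-ATP8 was called lower (0.0379 and 0.0354).

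The 7 subunits of complex I, NADH dehydrogenase, went different ways under LA: 3 were lower, 1 was higher and 3 were not called. MT-ND3, a small subunit near the quinone site, stood at 3539.6, 3873 and 3856 TPM in LA and 3175, 3037 and 3132 TPM in LA+RVT (-0.27 ± 0.037, limma adjusted p = 0.00523). MT-ND2, of the proton-pumping arm, stood at 3615, 3575 and 3395 TPM in LA and 3118, 3013 and 3078 TPM in LA+RVT (-0.20 ± 0.027, limma adjusted p = 0.00471), and MT-ND4 at 8129, 7867 and 7721 TPM in LA and 7295, 7172 and 7294 TPM in LA+RVT (-0.12 ± 0.021, limma adjusted p = 0.0102). These 3 did not overlap between groups, and the call of MT-ND4 was lost with no filter on low genes (adjusted p = 0.123). MT-ND1 (2696 ± 79.5 and 2875 ± 98.5 TPM, adjusted p = 0.0976), MT-ND5 (5079 ± 85.8 and 5344 ± 236 TPM, 0.186) and MT-ND4L (17599 ± 815 and 16415 ± 788 TPM, 0.171) overlapped between groups and were not called by limma. Without LA+RVT replicate 1, MT-ND1 and MT-ND5 were called higher (adjusted p = 0.0445 and 0.0236, log2 fold change 0.12 and 0.11). MT-ND4L was called lower with the replicate block (limma adjusted p = 0.0352, log2 fold change -0.10).

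The gene that rose was MT-ND6, the only protein gene of the light strand. It stood at 3387, 3470.5 and 3572 TPM in LA and 3935, 4107 and 4365 TPM in LA+RVT, 18.98% higher in the mean (0.25 ± 0.039, limma adjusted p = 0.00813). Every LA+RVT library was above every LA library. Of the rRNAs, MT-RNR2, the large-subunit rRNA, stood at 6197, 6006 and 6191 TPM in LA and 6991, 6934 and 7168 TPM in LA+RVT, also without overlap (0.20 ± 0.019, limma adjusted p = 0.00139). MT-RNR1, the small-subunit rRNA, stood at 1206, 1166 and 1264 TPM in LA and 1274, 1297 and 1335 TPM in LA+RVT (0.10 ± 0.033, limma adjusted p = 0.0817). Its groups did not overlap but it was not called, except without LA replicate 3 (adjusted p = 0.0439, log2 fold change 0.13). The log2 ratio of MT-RNR2 to MT-RNR1 was 2.34 ± 0.041 in LA and 2.43 ± 0.020 in LA+RVT (exact permutation p = 0.1, the smallest possible).

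**Figure D3:**
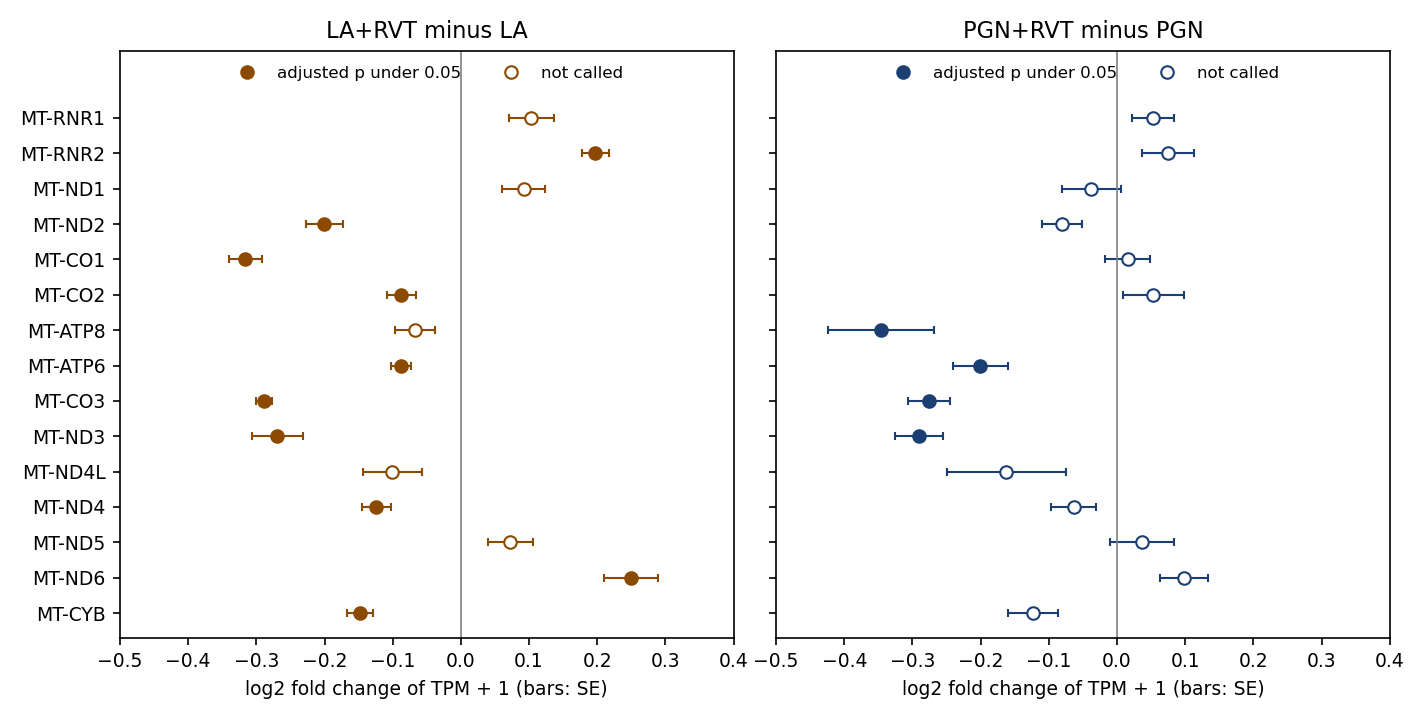
log2 fold change with RVT (± SE, limma) of the 15 measured mitochondrial genes under LA and under PGN, in order along the genome; filled points have an adjusted p under 0.05. Under LA 8 genes are lower and MT-RNR2 and MT-ND6 higher. Under PGN the 4 called genes are MT-ATP8, MT-ATP6, MT-CO3 and MT-ND3, next to each other among the 15 measured genes, which was noticed after the values were seen.

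Under PGN the same test ran over 14622 genes, and 4 of the 13 protein genes were lower in PGN+RVT, none was higher (1 at an unadjusted p under 0.05, MT-ND6) and neither rRNA was called (0 at an unadjusted p under 0.05). Of all genes tested 15.6% were called, 10.6% higher and 4.92% lower. The median log2 fold change was -0.081 over the 13 protein genes and 0.064 over all genes. With library medians equalised, 850 genes were higher and 1020 lower in place of 1557 and 720, and the 13 protein genes again had 4 lower calls. The 4 called genes, MT-ATP8, MT-ATP6, MT-CO3 and MT-ND3, are next to each other among the 15 measured genes and span chrM:8366-10404, a stretch noticed after their values were seen. Within it MT-ATP8, MT-ATP6 and MT-CO3 have no tRNA between them.

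MT-ATP8 stood at 22911, 19856 and 19436 TPM in PGN and 17625, 14919.9 and 16393 TPM in PGN+RVT, and its mean fell by 21.3% (-0.35 ± 0.078, limma adjusted p = 0.0258). MT-ATP6 stood at 5696, 5849 and 6056 TPM in PGN and 5390.0, 4995 and 4941 TPM in PGN+RVT (-0.20 ± 0.041, limma adjusted p = 0.0185). Neither overlapped between groups, but both calls were lost without PGN replicate 2 (adjusted p = 0.0550 and 0.0595), PGN+RVT replicate 2 (0.0736 and 0.0669) or PGN+RVT replicate 3 (0.0749 and 0.0683). The call of MT-ATP6 was also lost with the replicate block (0.0598). MT-CO3 went from 9391, 9255 and 9037 to 7905, 7438 and 7533 TPM (-0.28 ± 0.031, limma adjusted p = 0.00192) and MT-ND3 from 3472, 3285 and 3228 to 2780.2, 2662 and 2717 TPM (-0.29 ± 0.035, limma adjusted p = 0.00279). The calls of MT-CO3 and MT-ND3 held with any library left out, but with no filter on low genes only MT-ND3 stayed called (adjusted p = 0.184 for MT-ATP8, 0.160 for MT-ATP6 and 0.0705 for MT-CO3). The mean of MT-CO3 changed by -17.4% beside -18.1% under LA, and that of MT-ND3 by -18.3% beside -17.1%.

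Genes that were lower under LA were not all lower under PGN. MT-CO1 stood at 11394, 11073 and 11584 TPM in PGN and 11858, 11032 and 11543 TPM in PGN+RVT, with overlap (0.016 ± 0.033, 95% interval -0.061 to 0.093, limma adjusted p = 0.786). MT-CO2 stood at 19280.2, 20286 and 21454 TPM in PGN and 22025, 20461 and 20806 TPM in PGN+RVT (0.053 ± 0.045, 95% interval -0.051 to 0.16). MT-ND2 (-0.081 ± 0.030, adjusted p = 0.115) and MT-CYB (-0.12 ± 0.037, adjusted p = 0.0623) had every PGN+RVT library below every PGN library but were not called by limma. MT-CYB was called without PGN replicate 1 (adjusted p = 0.0478, log2 fold change -0.15) and with a mean of at least 5 TPM (0.0422, -0.12). MT-ND1 (-0.038 ± 0.043), MT-ND4 (-0.064 ± 0.033), MT-ND4L (-0.16 ± 0.087) and MT-ND5 (0.036 ± 0.047) overlapped between groups. So did MT-RNR1 (0.053 ± 0.031) and MT-RNR2 (0.074 ± 0.038). With library medians equalised, the log2 fold changes of MT-CO1, MT-CO2, MT-ND5 and MT-RNR1 under PGN turned below 0 and stayed uncalled.

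The strands were compared as the log2 ratio of MT-ND6 to the summed TPM of the 12 heavy-strand protein genes, which does not depend on the scale of the library. It was -5.28, -5.20 and -5.14 in LA and -4.93, -4.82 and -4.76 in LA+RVT, a difference of 0.37. It was -5.17, -5.06 and -5.08 in PGN and -4.91, -4.81 and -4.92 in PGN+RVT, a difference of 0.23. The light-strand gene stood higher beside the heavy-strand genes in all 6 RVT libraries, with no overlap in either arm. The exact permutation test gave p = 0.1 in each arm, and p = 0.005 over both arms (adjusted p = 0.0183). The 2 differences were not shown to differ from each other (exact permutation p = 0.5). MT-ND6 is a single gene, so the ratio does not speak for the strands as a whole. Under LA the heavy-strand MT-RNR2 was also called higher (log2 fold change 0.20). MT-RNR1, MT-ND1 and MT-ND5 were above 0 without a call (0.10, 0.092 and 0.073), while 8 of the 12 heavy-strand protein genes were called lower. Taken alone, MT-ND6 under PGN stood at 2919, 3059 and 3118 TPM in PGN and 3344, 3226 and 3167 TPM in PGN+RVT and missed the threshold (0.10 ± 0.035, limma adjusted p = 0.105), although the groups did not overlap.

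Whether RVT acted differently under the stimuli was tested as the RVT difference under PGN minus that under LA, over 15177 genes in both tables and all 12 libraries. Of the 15 mitochondrial genes only MT-CO1 was called, with a difference of 0.33 ± 0.043 (95% interval 0.24 to 0.43, limma adjusted p = 0.000477), beside 14.8% of all genes tested (7.73% higher and 7.03% lower). It stayed called in all 21 alternatives, including each of the 12 that left out a library. Among the other 14, some unadjusted intervals excluded 0 without a call: MT-ATP8 had -0.28 ± 0.093 (-0.48 to -0.075, adjusted p = 0.0685), MT-ND6 -0.15 ± 0.055 (-0.27 to -0.030, 0.0939), MT-RNR2 -0.12 ± 0.045 (-0.22 to -0.025, 0.0907) and MT-CO2 0.14 ± 0.053 (0.024 to 0.26, 0.106). MT-CO3, at 0.013 ± 0.032, had the narrowest interval, -0.057 to 0.084. With 1 library left out at a time, further genes were called: MT-ATP8 without PGN replicate 3 or PGN+RVT replicate 1 (adjusted p = 0.0439 and 0.0336), MT-ND1 and MT-ATP6 without PGN+RVT replicate 1 (0.0347 and 0.0193), MT-RNR2 without PGN+RVT replicate 3 (0.0358), MT-ND2 without LA replicate 3 (0.0307), MT-CO2 without PGN replicate 3 (0.0259) and MT-ND6 without LA+RVT replicate 1 (0.0427). With library medians equalised MT-RNR2 and MT-ATP8 were also called (0.0212 and 0.0341), and the small difference of MT-CO3 turned below 0. MT-ATP8 was called as well with a mean of at least 5 TPM (0.048) and with the replicate block (0.0102). The arms share no library, and across the 15 genes their log2 fold changes had a Pearson r of 0.60 (Spearman rho 0.60), or 0.75 and 0.72 over the 14 without MT-CO1, as a description of genes measured in the same libraries.

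The arms also differed in how the mRNA pool was divided among the complexes. Complex IV held 40.8, 41.3 and 40.6% of the summed TPM of the 13 protein genes in LA and 39.00, 39.2 and 38.99% in LA+RVT, but 37.04, 38.8 and 38.7% in PGN and 40.3, 41.6 and 40.3% in PGN+RVT. Its share was lower with RVT under LA and higher under PGN, without overlap in either. The share of complex V went the other way, from 23.5 ± 0.346% to 24.2 ± 0.267% under LA and from 24.8 ± 1.53% to 21.7 ± 0.474% under PGN. The differences between the arms were 4.39 and -3.79 percentage points. An exact permutation test that shuffles labels within each arm, added after the data were seen, gave p = 0.005 for each (adjusted p = 0.0275 over 11 quantities). That is the smallest p its 400 arrangements allow. The shuffles take RVT to have no effect in either arm, so the test does not ask whether 2 real effects are equal. Shares sum to 100% by construction, so a gain of 1 complex is a loss of another. A share can also rise while its genes do not. Of the 3 complex IV genes under PGN, 0 were called higher and 1 lower. Of the 2 complex V genes under LA, 0 were called higher and 1 lower.

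Within complex V under PGN the loss was mostly that of MT-ATP8, which went from 2.08% to 1.64% of all TPM, beside 0.589% to 0.514% for MT-ATP6. Complex I held 33.4 ± 0.0652% in LA and 34.6 ± 0.277% in LA+RVT, without overlap, and 34.5 ± 0.666% and 35.1 ± 0.601% under PGN, with overlap (exact permutation p = 0.015 over both arms, adjusted p = 0.033). Complex III, which is MT-CYB alone, held 2.19 ± 0.0523% and 2.14 ± 0.0275% under LA and 2.51 ± 0.0969% and 2.50 ± 0.112% under PGN, with overlap in both. Weighting each gene by its length, chosen after seeing the data, kept the directions of complexes IV and V in both arms (-2.76 and 1.49 percentage points for complex IV, 0.389 and -1.46 for complex V).

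**Figure D4:**
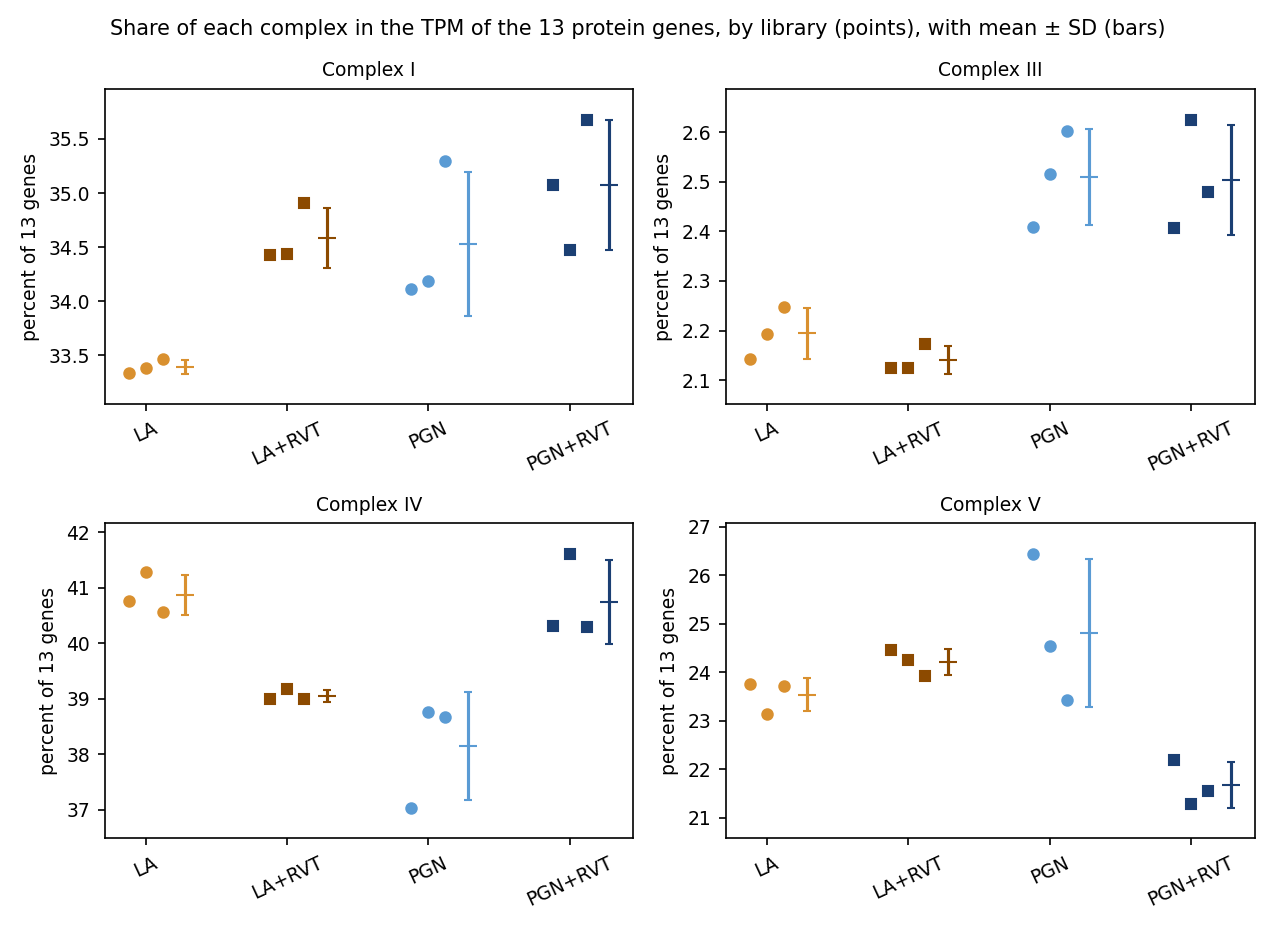
Share of complexes I, III, IV and V in the summed TPM of the 13 protein genes, with a point for each library and a bar for mean ± SD (n = 3 a group); each panel has its own axis, which does not start at 0. The share of complex IV goes down with RVT under LA and up under PGN, and that of complex V the other way. No complex IV gene was called higher under PGN and no complex V gene under LA.

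The nuclear genome holds old copies of mitochondrial DNA, and reads of near-identical copies cannot be assigned with certainty. Each table lists 415 such copies, and 8 of them in the LA table and 7 in the PGN table reached a mean of 1 TPM. MTATP6P1 (chr1:633696-634376) stood highest, at 2922 ± 56.2 TPM in LA and 467 ± 22.03 TPM in PGN, which is 48.5% ± 1.26 and 7.96% ± 0.333 of the level of MT-ATP6. It aligns to the whole of MT-ATP6 with 98.5% identity and 10 differences, so the split of reads between these genes is uncertain, most of all under LA. A stretch of 60 bases that holds 3 of the differences, in capitals, shows how alike they are (chrM:8642-8701 and chr1:633811-633870, both plus strand).
MT-ATP6: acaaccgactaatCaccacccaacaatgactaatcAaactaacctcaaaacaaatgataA
MTATP6P1: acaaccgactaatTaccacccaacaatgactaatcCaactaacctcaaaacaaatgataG
MTCO1P12 (chr1:631074-632616) is 98.6% identical to MT-CO1, with 21 differences, and MTRNR2L1 (chr17:22523111-22524663), a nuclear copy of MT-RNR2, is 88.5% identical with 179. Differences from the parent are in capitals again, in chrM:6207-6266 with chr1:631377-631436 and in chrM:2831-2890 with chr17:22524260-22524319, all plus strand.
MT-CO1: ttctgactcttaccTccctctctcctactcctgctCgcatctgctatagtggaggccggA
MTCO1P12: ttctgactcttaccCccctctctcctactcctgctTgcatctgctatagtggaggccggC
MT-RNR2: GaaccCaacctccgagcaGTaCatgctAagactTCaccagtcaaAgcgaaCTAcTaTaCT
MTRNR2L1: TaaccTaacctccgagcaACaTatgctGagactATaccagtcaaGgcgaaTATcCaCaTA

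Under LA these 3 copies changed in the same direction as their parents, though not by the same amount. MTCO1P12 stood at 134, 134 and 135 TPM in LA and 93.5, 81.4 and 84.1 TPM in LA+RVT (-0.64 ± 0.052, limma adjusted p = 0.000805), beside -0.32 for MT-CO1. It stood at 71.1, 70.3 and 76.9 TPM in PGN and 71.2, 75.2 and 71.9 TPM in PGN+RVT, with overlap. The difference between the arms was 0.64 ± 0.075 (limma adjusted p = 0.000270), the same direction as for MT-CO1. MTRNR2L1 rose under LA from 42.5, 42.7 and 43.2 to 51.6, 55.2 and 55.9 TPM (0.33 ± 0.044, limma adjusted p = 0.00414), as MT-RNR2 did. Under PGN the signs were opposite and neither was called (-0.076 ± 0.091 for MTRNR2L1, 0.074 ± 0.038 for MT-RNR2). The difference between the arms was called for MTRNR2L1 (-0.41 ± 0.11, limma adjusted p = 0.0251), a call lost in 8 of 12 fits with a library left out. That of MT-RNR2 was not called (-0.12, 0.0907). MTATP6P1 was lower with RVT under LA (-0.13 ± 0.030, limma adjusted p = 0.0280) and under PGN (-0.25 ± 0.049, limma adjusted p = 0.0153), but leaving out a library could end these calls. The call under LA was lost without LA replicate 1 (0.0718), LA replicate 2 (0.0596), LA replicate 3 (0.0888), LA+RVT replicate 2 (0.0852) or LA+RVT replicate 3 (0.0653), and that under PGN without PGN replicate 2 (0.0548), PGN+RVT replicate 2 (0.0542) or PGN+RVT replicate 3 (0.0523), with limma adjusted p in parentheses. With the copies added to their parents, an alternative chosen after seeing the data, 10 mitochondrial genes were called under LA and 4 under PGN, as without it. What share of the copies' reads came from the mitochondrial genome was not tested.

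Nuclear genes that transcribe, process and modify the circle's RNA, or that supply the partner subunits, were taken from lists and are given by counts, beside the all-gene medians of 0.036 under LA and 0.064 under PGN and the shares of all genes called, 10.7% higher and 5.07% lower under LA and 10.6% higher and 4.92% lower under PGN. Of 11 transcription genes, which include the polymerase and its factors, none was called under LA by limma (4 were higher at an unadjusted p under 0.05), with a median of 0.19. Under PGN 1 was higher: TOP1MT, the mitochondrial topoisomerase, from 35.4 ± 0.836 to 41.2 ± 1.52 TPM (adjusted p = 0.0372), a call that each of 6 fits with a library left out lost (adjusted p up to 0.141). Of 17 genes of mtDNA replication and maintenance, 1 was higher and 3 were lower under LA (10.7% and 5.07% of all genes), and none was called under PGN (1 higher and 2 lower at an unadjusted p under 0.05). Leaving out a library ended the calls of FEN1 and TYMP in 5 of 6 fits each and that of TWNK in 3 of 6. DGUOK, the mitochondrial deoxyguanosine kinase, fell under LA from 102 ± 3.88 to 85.4 ± 0.610 TPM (-0.26 ± 0.037, limma adjusted p = 0.00548). It went from 94.2 ± 4.26 to 100.4 ± 3.35 TPM under PGN, where it was not called, and its difference between the arms was 0.35 ± 0.062 (limma adjusted p = 0.00327).

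Genes that act on mitochondrial RNA after transcription were counted in the same way. Of 25 genes of processing, polyadenylation and decay, 3 were higher under LA and 1 under PGN, beside 10.7% and 10.6% of all genes, with medians of 0.068 and 0.016. At an unadjusted limma p under 0.05, 9 were higher and 1 lower under LA, and 4 were higher and 1 lower under PGN. The call under PGN, RPUSD3, was lost in each of 6 fits with a library left out. GRSF1, an RNA-binding protein of mitochondrial RNA granules, rose under LA from 49.2 ± 2.11 to 59.02 ± 1.54 TPM (0.26 ± 0.045, limma adjusted p = 0.0119), and FASTKD2, which binds the large rRNA, from 28.1 ± 0.295 to 33.97 ± 1.22 TPM (0.26 ± 0.046, limma adjusted p = 0.0117). PDE12, which removes poly(A) tails, rose from 8.04 ± 0.393 to 11.03 ± 0.629 TPM (0.41 ± 0.076, limma adjusted p = 0.0141), a call lost without LA replicate 2 or 3 (adjusted p = 0.0513 and 0.0514). Of 18 genes of rRNA and tRNA modification, 3 were higher under LA and 2 under PGN, beside the same 10.7% and 10.6%. At an unadjusted limma p under 0.05, 6 were higher and 0 lower under LA, and 2 were higher and 1 lower under PGN. Leaving out a library ended the call of GTPBP3 under LA and that of MTFMT under PGN in each of 6 fits. That of TRMU was lost in 3 of 6 under LA and 4 of 6 under PGN. PUS1, a pseudouridine synthase, rose most under LA, from 24.3 ± 2.19 to 41.6 ± 2.01 TPM (0.75 ± 0.073, limma adjusted p = 0.00136), and went from 42.7 ± 3.13 to 37.01 ± 3.45 TPM under PGN, where it was not called. Its difference between the arms was -0.96 ± 0.12 (limma adjusted p = 0.000377).

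Among the nuclear subunits of complex IV under LA, 0 of 11 were higher (0 at an unadjusted p under 0.05) and 3 were lower, with a median of -0.10. Of all genes 10.7% were higher and 5.07% lower under LA. COX8A fell from 1174 ± 24.2 to 1081 ± 24.7 TPM (-0.12 ± 0.025, limma adjusted p = 0.0217), and COX5B and COX7C were also called lower (-0.18 ± 0.035 and -0.15 ± 0.032, limma adjusted p = 0.0190 and 0.0252). The call of COX8A was lost without LA replicate 2 (0.0743), LA replicate 3 (0.0751), LA+RVT replicate 1 (0.0539) or LA+RVT replicate 3 (0.0545), that of COX5B without LA replicate 1 (0.0518), LA replicate 2 (0.0563) or LA replicate 3 (0.0669) and that of COX7C without LA replicate 2 (0.0791), LA replicate 3 (0.0807), LA+RVT replicate 1 (0.0680) or LA+RVT replicate 3 (0.0709), with limma adjusted p in parentheses. Under PGN 2 of 11 were higher and 0 lower (0 at an unadjusted p under 0.05), beside 10.6% and 4.92% of all genes. COX8A rose there from 976 ± 25.3 to 1189 ± 32.02 TPM (0.29 ± 0.034, limma adjusted p = 0.00279), a call kept with each library left out in turn, and NDUFA4 rose from 47.3 ± 1.998 to 56.4 ± 3.54 TPM (limma adjusted p = 0.0392), a call that all 6 such fits lost (adjusted p up to 0.111). The difference between the arms was 0.40 ± 0.042 for COX8A (limma adjusted p = 0.000102) and 0.25 ± 0.050 for COX5B (0.00598), each higher under PGN as for MT-CO1. It was not called for COX7C (0.15 ± 0.064, limma adjusted p = 0.147), nor for MT-CO3 of the same complex (0.013 ± 0.032, 0.835).

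Of 18 nuclear subunits of complex V, 1 was higher and 2 were lower under LA (10.7% and 5.07% of all genes) and 1 was higher under PGN (10.6% of all genes), where the list had a median of 0.039. Leaving out a library ended the call of ATP5PF under LA in 4 of 6 fits and that of ATP5PD under PGN in 3 of 6. ATP5F1D, the delta subunit, rose under LA from 92.5 ± 4.03 to 124 ± 4.59 TPM (0.42 ± 0.045, limma adjusted p = 0.00187), and ATP5IF1, an inhibitor of the enzyme, fell from 931 ± 15.2 to 848 ± 19.9 TPM (-0.14 ± 0.024, limma adjusted p = 0.0124). Of 9 subunits of complex III, 1 was lower under LA and none was called under PGN (1 higher at an unadjusted p under 0.05). The call under LA, UQCRC2, was lost in 5 of 6 fits with a library left out. Of 7 core subunits of complex I, 1 was higher and 1 lower under LA, and none was called under PGN by limma (4 higher at an unadjusted p under 0.05). The calls under LA, NDUFV1 and NDUFV2, were each lost in 5 of 6 fits with a library left out. Complex II has no mitochondrial gene. Of its 8 nuclear genes 1 was lower under LA, SDHA (-0.15 ± 0.025, limma adjusted p = 0.00917), and 1 higher under PGN. The latter, SDHB, lost its call in 5 of 6 fits with a library left out.

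Mitochondrial chaperones and proteases, which fold and clear proteins of the organelle, had 7 of 13 members higher and none lower under LA (0 lower at an unadjusted p under 0.05), with a median of 0.18. Of all genes 10.7% were higher and 5.07% lower there. HSPD1, the chaperonin, rose from 429 ± 7.06 to 559 ± 12.3 TPM (0.38 ± 0.025, limma adjusted p = 0.000389), and its partner HSPE1 from 531 ± 24.8 to 623 ± 23.5 TPM (0.23 ± 0.042, limma adjusted p = 0.0134). Under PGN none of the 13 was called by limma (0 higher and 1 lower at an unadjusted p under 0.05), with HSPD1 going from 618 ± 40.3 to 568 ± 20.8 TPM. The difference between the arms was -0.50 ± 0.062 for HSPD1 (limma adjusted p = 0.000365) and -0.34 ± 0.053 for HSPE1 (0.00162). Of 13 tested regulators of mitochondrial biogenesis, 2 were higher under LA and 1 lower under PGN, beside 10.7% and 4.92% of all genes. Leaving out a library ended the call of YY1 under LA in 5 of 6 fits and that of PPARGC1B under PGN in all 6. PPRC1, a coactivator related to PGC-1, rose under LA from 21.2 ± 1.47 to 26.96 ± 0.976 TPM (0.33 ± 0.064, limma adjusted p = 0.0160), a call lost without LA replicate 1 or 3 or LA+RVT replicate 2 (adjusted p = 0.0554, 0.0580 and 0.0540), and its difference between the arms was -0.46 ± 0.084 (limma adjusted p = 0.00443). The plot of these lists shows all tested members.

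**Figure D5:**
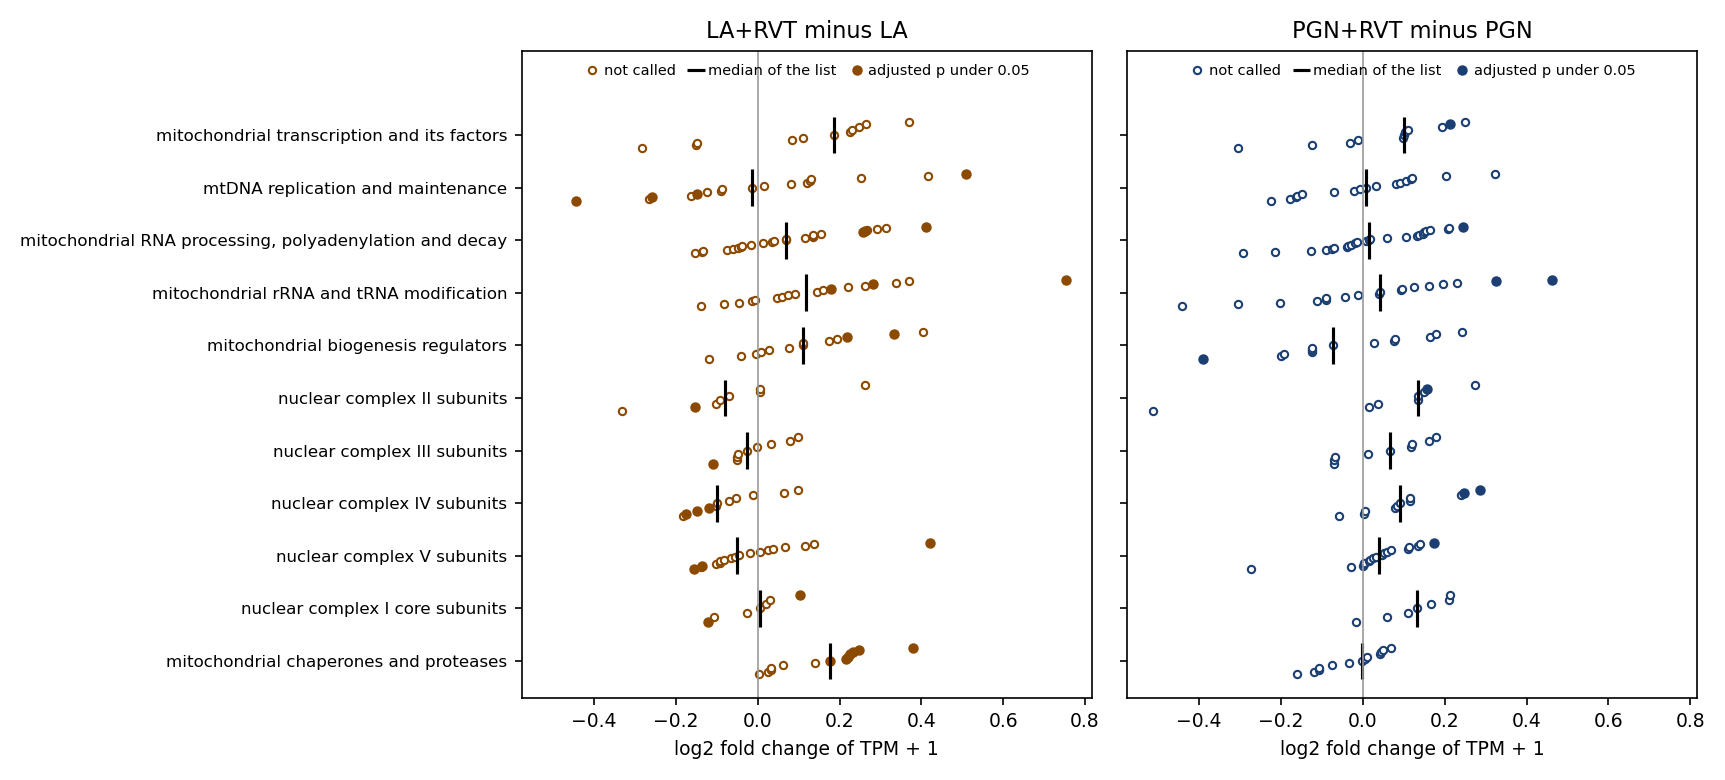
log2 fold change with RVT under LA and under PGN of nuclear genes in 11 lists, with a point for each tested gene (filled where the adjusted p is under 0.05) and a black bar for the median of each list. Chaperones and proteases lie to the right of 0 under LA, where 7 of 13 are called (10.7% of all genes are higher), and around 0 under PGN. Nuclear complex IV subunits lie mostly below 0 under LA and above 0 under PGN.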

How the data were processed

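RNA-seq of 12 libraries of SZ95 sebocytes was analysed from the TPM values that the authors deposited, 1 table for the 6 LA libraries and 1 for the 6 PGN libraries. The submitters' processing notes name HISAT2 2.1.0, RSEM 1.3.1, DESeq2 1.24.0 and GRCh38.p13, with no role or order; the annotation release, strandedness and RNA selection are not given in the sources used here. Depth is unknown, and 0 other per-sample columns were left out.

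Values were taken as log2(TPM + 1) for genes whose mean reached 1 TPM, and limma 3.58.1 under R 4.3.3 was used (two-sided, with a trended prior, Benjamini-Hochberg adjustment over all genes, threshold 0.05), in each arm and over all 12 libraries for the difference between arms. Shares and ratios had two-sided exact permutation tests (smallest p 0.1 in an arm, 0.005 over the 400 arrangements of both arms). Simulated data had 100 genes changed by 0.5 and 100 by 1 on the log2 scale, drawn from the more abundant genes. Of those changed by 0.5 the fit recovered 75% among 15176 genes under LA, 63% among 14449 under PGN and 57% among 14924 for the difference. Unchanged genes gave 15, 5 and 11 false calls. Changes of the mitochondrial genes were smaller than 0.5, and recovery at their size was not simulated. Named were all protein and rRNA genes, up to 4 genes of smallest p in each nuclear list, and the nuclear copies of highest level. Alternatives changed the pseudocount, filter, scaling, replicate block, prior and libraries. The members and lists were chosen with earlier results of these data known.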

Additional observations from a re-analysis of the deposited data

Results flagged for a closer look

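These results stood out because the effect of RVT differed between the arms (RVT difference under PGN minus that under LA). For genes this was a limma test of the difference itself, with Benjamini-Hochberg adjustment. For shares it was an exact permutation test whose shuffles take RVT to have no effect in either arm. Among mitochondrial genes the limma difference was called for MT-CO1 (0.33 on the log2 scale), and among nuclear copies for MTCO1P12 (0.64) and MTRNR2L1 (-0.41). The call of MTRNR2L1 was lost without LA replicate 1 (0.0542), LA replicate 2 (0.0515), LA+RVT replicate 2 (0.0563), LA+RVT replicate 3 (0.0573), PGN replicate 1 (0.0532), PGN replicate 2 (0.0552), PGN+RVT replicate 1 (0.0535) or PGN+RVT replicate 2 (0.0590), with adjusted p in parentheses. MTRNR2L1 also lost its call with no filter on low genes (limma adjusted p = 0.0605) and with the replicate block (0.0698). The share of complex IV in the protein gene TPM differed by 4.39 percentage points and that of complex V by -3.79.

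Named nuclear genes with a higher RVT effect under PGN than under LA were COX8A (0.40), DGUOK (0.35), NDUFS3 (0.32), NDUFA4 (0.30), SDHA (0.29), COX5B (0.25), ATP5IF1 (0.25), SDHC (0.23) and SDHB (0.15). Those with a lower effect were PUS1 (-0.96), ATP5F1D (-0.69), PPARGC1B (-0.56), TWNK (-0.53), HSPD1 (-0.50), PPRC1 (-0.46), YY1 (-0.42), PDE12 (-0.39), HSPE1 (-0.34) and TRAP1 (-0.28), all as differences on the log2 scale. Leaving out a library ended 5 of these calls. The call of NDUFS3 was lost in 9 of 12 such fits, without LA replicate 1 (0.0724), LA replicate 2 (0.0819), LA+RVT replicate 1 (0.0756), LA+RVT replicate 2 (0.0568), PGN replicate 1 (0.0726), PGN replicate 2 (0.0806), PGN+RVT replicate 1 (0.0543), PGN+RVT replicate 2 (0.0834) or PGN+RVT replicate 3 (0.0538). The call of NDUFA4 was lost in 6 of 12 such fits, without LA replicate 2 (0.0597), LA replicate 3 (0.0746), LA+RVT replicate 1 (0.0680), LA+RVT replicate 3 (0.0643), PGN replicate 3 (0.0600) or PGN+RVT replicate 2 (0.0652). The call of SDHC was lost in 6 of 12 such fits, without LA replicate 2 (0.0753), LA replicate 3 (0.0643), LA+RVT replicate 2 (0.0736), PGN replicate 3 (0.0539), PGN+RVT replicate 2 (0.0596) or PGN+RVT replicate 3 (0.0701). The call of SDHB was lost in 10 of 12 such fits, without LA replicate 1 (0.0889), LA replicate 2 (0.0826), LA+RVT replicate 1 (0.0604), LA+RVT replicate 2 (0.0823), LA+RVT replicate 3 (0.0616), PGN replicate 2 (0.0824), PGN replicate 3 (0.0519), PGN+RVT replicate 1 (0.0648), PGN+RVT replicate 2 (0.0786) or PGN+RVT replicate 3 (0.0522). The call of TRAP1 was lost in 6 of 12 such fits, without LA replicate 2 (0.0507), LA replicate 3 (0.0679), LA+RVT replicate 2 (0.0515), LA+RVT replicate 3 (0.0633), PGN replicate 2 (0.0555) or PGN+RVT replicate 3 (0.0630). Values in parentheses are limma adjusted p. With no filter on low genes the calls of NDUFS3 (0.0843), NDUFA4 (0.0553), SDHC (0.0594), TRAP1 (0.0685) and PPARGC1B (0.0550) were lost, and with library medians equalised those of NDUFS3 (0.0720), NDUFA4 (0.0541) and SDHB (0.0831). The replicate block ended the calls of PDE12 (0.0634), PPARGC1B (0.0777), TWNK (0.0561), YY1 (0.0507), NDUFS3 (0.0751), SDHB (0.1), SDHC (0.103) and TRAP1 (0.0875). The named genes were chosen for a small p in an arm, so their share called is no measure of nuclear genes at large.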

How the results depend on the processing

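The call of MT-CO1 under LA and for the difference between the arms was the same in all alternatives run. Genes called in all under LA were 2426, against 1610 with no filter, 1502 with the replicate block and 1428 to 1690 with a library left out, moving by over 1.5 times without LA replicate 1 (1459), LA replicate 2 (1428), LA replicate 3 (1463) or LA+RVT replicate 2 (1546). Under PGN they were 2277, against 1384 with no filter and 1095 to 1861 with a library left out, moving by over 1.5 times without PGN replicate 2 (1236), PGN+RVT replicate 1 (1095), PGN+RVT replicate 2 (1174) or PGN+RVT replicate 3 (1201). Mitochondrial genes called under PGN were 4, against 1 with no filter and 2 to 5 with a library left out, moving by over 1.5 times without PGN replicate 2 (2), PGN+RVT replicate 2 (2) or PGN+RVT replicate 3 (2). For the difference they were 1, against 2 with a mean of at least 5 TPM, 3 with library medians equalised, 2 with the replicate block and 1 to 4 with a library left out, moving by over 1.5 times without LA replicate 3 (2), LA+RVT replicate 1 (2), PGN replicate 3 (3), PGN+RVT replicate 1 (4) or PGN+RVT replicate 3 (2). With a library left out, small differences changed sign: the share of complex III under PGN (-0.066 to 0.044 percentage points), and the log2 ratios of MT-RNR2 to MT-RNR1 under PGN (-0.00029 to 0.048), MT-ATP8 to MT-ATP6 under LA (-0.0045 to 0.041) and MT-ND4L to MT-ND4 under LA (-0.0065 to 0.051). Uncalled log2 fold changes under PGN turned below 0 with library medians equalised for MT-RNR1 (-0.0059), MT-CO1 (-0.043), MT-CO2 (-0.0054) and MT-ND5 (-0.023), and MT-CO1 ranged from -0.0081 to 0.044 with a library left out. The difference between the arms changed sign for MT-CO3 with library medians equalised (-0.0058), and with a library left out for MT-CO3 (-0.013 to 0.031), MT-ND3 (-0.044 to 0.021), MT-ND4L (-0.11 to 0.036) and MT-ND5 (-0.073 to 0.017). The causes were not tested. Same-numbered libraries did not deviate together (correlations of -0.070 to 0.041), so the numbers were not taken as a pairing; with the replicate block, 11 mitochondrial genes were called under LA, 3 under PGN and 2 for the difference, and 1574 and 1730 genes in all under PGN and for the difference. TPM without counts leaves the depth, and so the counting error, unknown.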
